A study of Mus musculus with 6 samples.

Results

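Apolipoproteins are the protein shells of the particles that carry fat and cholesterol in blood, and this account covers 9 of them together with Mttp, the transfer protein that loads lipid onto 1 of them. The 10 genes (Apoa1, Apoa2, Apoa4, Apoa5, Apob, Apoc1, Apoc2, Apoc3, Apoe and Mttp) were taken by symbol from a table of 43346 genes, and all 10 were found, each in 1 row, and passed the filter on low counts. RNA had been sequenced from liver tumours of mice given the carcinogen diethylnitrosamine (DEN). There were 3 Gli1 knockout (KO) and 3 Gli1 wild-type (WT) tumours. Both groups carried the SULF2 transgene, an extracellular sulfatase that trims heparan sulfate, and tumours without it and normal liver were not analysed here. The labels attach TTR to the transgene name without spelling it out; the transthyretin promoter of that abbreviation is widely used to drive transgenes in hepatocytes. Strain, age, sex, dose, the part of Gli1 that was deleted and whether each tumour came from its own animal are not given in the labels. The p-values therefore measure only the spread between these samples, which may be technical.

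In the liver, Mttp works inside the endoplasmic reticulum, where it moves triglyceride onto the growing Apob chain and so starts a very low density lipoprotein (VLDL) particle. Apoa1 and Apoa2 form the scaffold of high density lipoprotein (HDL), while Apoa4 is carried on both kinds of particle. The C apolipoproteins and Apoa5 set how quickly lipoprotein lipase unloads triglyceride, and Apoe is the ligand through which remnants are taken up, by receptors and by heparan sulfate proteoglycans. Mouse hepatocytes make all of them, but they are not the only source. For example, intestinal epithelium also makes Apoa4 and Apob, and macrophages also make Apoe.

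Promoter windows are shown for 4 genes, picked after their values had been seen. For Mttp and Apoe the KO and WT tumours did not overlap in normalized counts, as for 8.11% of all genes. Neither passed the adjusted test between genotypes. Apoa4 and Apoc2 varied most between tumours. Each window runs from 250 bases before to 50 bases after a RefSeq transcription start on GRCm38.p6, 5′ to 3′ on the strand of the gene. Mttp lies on the minus strand (chr3:138143369-138143668), Apoe on the minus strand (chr7:19699139-19699438), Apoa4 on the plus strand (chr9:46240594-46240893) and Apoc2 on the minus strand (chr7:19677892-19678191). Capitals mark matches on either strand to the hepatocyte nuclear factor motif CAAAGTCCA (up to 1 mismatch), the nuclear receptor repeat DR1, 2 copies of AGGTCA spaced by 1 base (up to 2), the HNF1 motif, GTTAAT and ATTAAC spaced by 1 base (up to 2), or an exact TATAAA, and no 2 matches overlapped in these windows.
Mttp promoter: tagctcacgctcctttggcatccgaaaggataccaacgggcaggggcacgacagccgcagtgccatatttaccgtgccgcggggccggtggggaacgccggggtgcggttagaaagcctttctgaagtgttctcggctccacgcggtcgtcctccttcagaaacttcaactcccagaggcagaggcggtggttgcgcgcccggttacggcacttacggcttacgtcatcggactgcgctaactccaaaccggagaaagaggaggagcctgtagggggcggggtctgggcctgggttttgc
Apoe promoter: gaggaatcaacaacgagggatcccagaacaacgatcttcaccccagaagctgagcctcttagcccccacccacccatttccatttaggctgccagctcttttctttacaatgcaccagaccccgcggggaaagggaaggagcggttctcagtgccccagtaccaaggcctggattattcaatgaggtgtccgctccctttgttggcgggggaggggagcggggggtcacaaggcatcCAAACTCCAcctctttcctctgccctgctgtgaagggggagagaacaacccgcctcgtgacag
Apoa4 promoter: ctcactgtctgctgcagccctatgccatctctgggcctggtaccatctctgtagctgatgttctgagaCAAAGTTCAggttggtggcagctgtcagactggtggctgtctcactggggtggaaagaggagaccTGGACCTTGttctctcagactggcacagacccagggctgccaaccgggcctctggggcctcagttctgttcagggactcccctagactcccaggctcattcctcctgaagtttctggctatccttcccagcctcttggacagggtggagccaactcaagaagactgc
Apoc2 promoter: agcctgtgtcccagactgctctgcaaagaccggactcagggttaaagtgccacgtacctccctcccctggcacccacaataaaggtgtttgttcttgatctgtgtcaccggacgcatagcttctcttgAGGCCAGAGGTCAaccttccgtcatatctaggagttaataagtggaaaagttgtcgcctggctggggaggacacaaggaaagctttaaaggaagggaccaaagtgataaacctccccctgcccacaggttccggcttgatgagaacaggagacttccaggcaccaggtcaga
RefSeq windows were found for 8 of the 10 members (12 windows, since Apoa2, Apoa5 and Apoe have several starts). Members are counted below by gene, over any of its windows, and the shares of all windows by window. The units are thus unlike, and a gene with several windows has more chances of a match. CAAAGTCCA-type matches lay in windows of Apoa2, Apoa4 and Apoe, 3 of the 8, and in 8.47% of all 32851 windows. The DR1 repeat matched in Apoa2 and Apoc2, and in 3.86% of all windows. HNF1 had a match in 0 of the 8, and in 1.36% of all windows. TATAAA was present for Apoa2, Apoa5, Apob and Apoe, and in 13.6% of all windows. None of the 4 motifs matched in the Mttp window, which reaches into Trmt10a on the opposite strand (from chr3:138143448). The GENCODE M21 model of Mttp ends at chr3:138144968, outside this window, and bases there were not searched. Bases further inside the gene were not searched either, and whether these tumours use this start was not tested. The sterol response element TCACCCCAC with up to 1 mismatch matched for Apoa5, Apob and Apoe and in 9.82% of all windows. The GLI motif GACCACCCA with up to 1 mismatch matched for Apoe alone among the 8, at another of its starts, and in 6.74% of all windows. These matches describe letters and do not show binding.

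Total counts ranged from 76746128 to 132979502 reads in the KO and from 75205624 to 95777670 in the WT libraries. Gli1 itself had 4, 3 and 3 reads in the KO and 10, 20 and 7 in the WT replicates, the direction the labels call for. These counts failed the filter on low counts, so Gli1 was not tested in edgeR. Sulf2 ranged from 2.63 to 164 normalized CPM in KO and from 5.33 to 76.4 in WT tumours. Whether the mouse Sulf2 row counts transcripts of the transgene was not tested. Normalized CPM are counts scaled to a common library size after TMM normalization, with no correction for length. The identity of the tissue was plain from the 10 hepatocyte markers checked, which summed to 191011 to 205617 normalized CPM in KO and 189223 to 249278 in WT tumours. Of 8 intestinal epithelial markers, Sis, Cdx1 and Cdx2 had 0 reads in every library, and Lct and Alpi also failed the filter on low counts. Only 3 passed it, Vil1, Fabp2 and Anpep. The 8 together summed to 298 to 383 CPM in KO and 156 to 339 in WT tumours. Of 10 stellate cell and fibroblast markers, 9 had a log2 fold change above 0, with sums of 312 to 719 CPM in KO and 139 to 427 in WT tumours. Cholangiocyte markers summed to 219 to 611 CPM in KO and 75.4 to 659 in WT tumours. Spp1 and Cdh1 made up most of each sum. Spp1 had 67.9 to 465 CPM in KO and 28.8 to 457 in WT tumours, and Cdh1 97.1 to 163 and 23.5 to 167. Krt7, Krt19, Epcam and Cftr each had at most 4.29 CPM in any tumour. All 7 neutrophil markers tested were below 0 (sums of 5.33 to 9.40 CPM in KO and 10.9 to 39.7 in WT), and of these Retnlg, named after its values were seen, passed in DESeq2 (adjusted p 4.2e-08) but not in edgeR (FDR 0.739). Below 0 were also 7 of 8 T and NK cell markers (2.07 to 3.49 in KO and 3.40 to 6.06 in WT). The part of these cells in the member values was not tested.

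Apolipoprotein mRNAs were among the most abundant in every tumour. Together the 10 genes took 4.92%, 5.77% and 4.22% of all reads in KO replicates 1, 2 and 3, against 7.35%, 3.51% and 5.12% in the WT replicates. The KO tumours lay within the range of the WT tumours (exact permutation test, two-sided, p = 0.8, where 3 against 3 samples cannot go below 0.1). The WT tumours spanned more, and the highest and the lowest share of the series were both WT.

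Per unit length the levels ran over more than 2 orders of magnitude, in the authors' deposited RPKM (counts scaled to gene length and library size; the length column of the file equals the GENCODE exonic length, UTRs included, for 5 of the 10 members). Apoa1, the main HDL protein, averaged 8877 RPKM over the 6 libraries and ranked 4 to 10 among all genes. Apoa4 (6652), Apoa2 (5134) and Apoe (4546) followed. Their order was not fixed: Apoa1 was above Apoa4 in 4 of 6 libraries, Apoa4 above Apoa2 in 4 and Apoa2 above Apoe in 5. Apoe exceeded Apoc1 (2650 RPKM on average) in all 6 libraries, by 1.55 to 2.05 times, and Apoc1 exceeded Apoc2 (1164) in all 6. Apoc2 and Apoc3 (1134) could not be ordered, with Apoc2 higher in 4 of 6. Apoc3 was above Apoa5 (425) in all 6, and Apoa5 above Apob (367) in 5. Mttp, a carrier inside the cell and no structural part of the particle, was lowest in all 6 libraries at 60.4 RPKM on average, and Apob was 5.03 to 8.43 times as high in the same tumour.

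**Figure D1:**
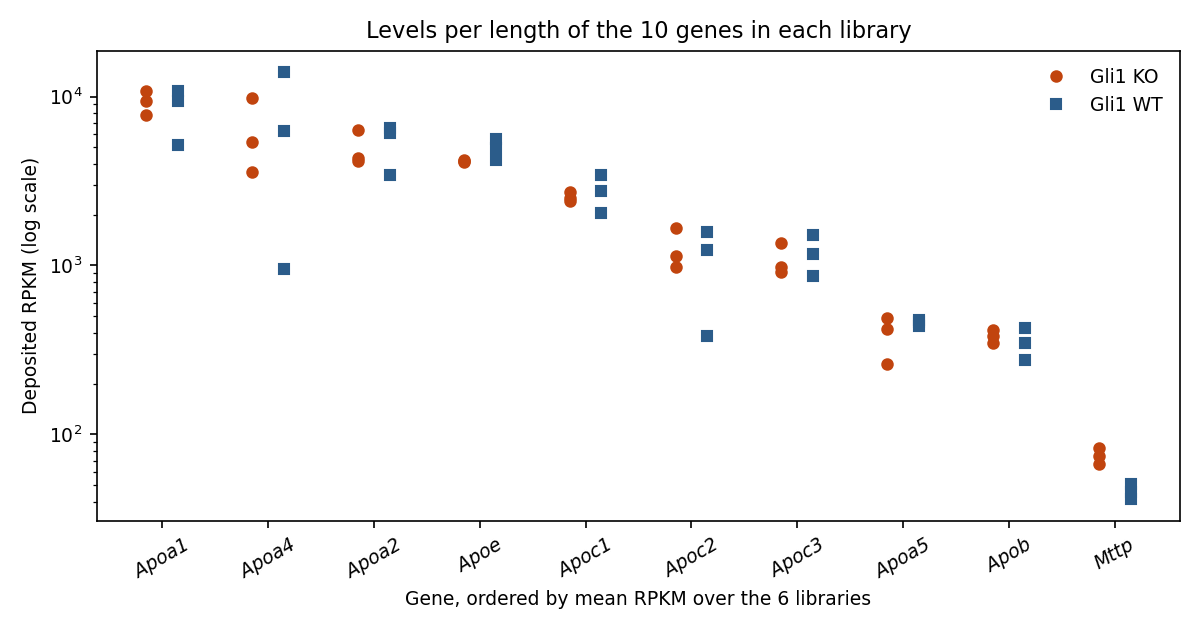
Deposited RPKM (log axis) of the 10 genes in each of 3 Gli1 KO (circles) and 3 Gli1 WT (squares) tumours, ordered by the mean over the 6 libraries. Apoa1 heads the order at 8877 RPKM on average and Mttp ends it at 60.4, and Apoa4 has the widest spread, with a WT tumour at 959.

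No member passed the adjusted test between KO and WT tumours. In edgeR's quasi-likelihood test, adjusted over 18359 genes, 0 of 10 members had an FDR under 0.05, and the same holds for all genes (0%). Among members, Mttp alone had an unadjusted p under 0.05, as did 3.62% of all genes. By DESeq2 the unadjusted p was 0.0306 for Mttp and 0.0497 for Apoe. In edgeR that of Mttp was 0.0505 with RLE factors and 0.129 with the replicate block, so no member was then under 0.05. By DESeq2 0 of 10 members were called, against 0.352% of all genes. Log2 fold changes were above 0 for 1 of 10 members, against 48.2% of all genes tested, with a median log2 fold change of -0.33 for the members and -0.01 for all genes. Of the 10 hepatocyte markers, 2 were above 0, with a median of -0.10. The count of members above 0 rested on scaling and on single libraries. Upper-quartile scaling made it 2 of 10, with Apoc2 at 0.010, and limma voom 3 of 10. Mean deposited RPKM, which are not scaled by TMM, were higher in KO for Apoa1, Apob, Apoc2 and Mttp. They were lower in KO for the other members. The TMM factors were 1.10, 1.00 and 1.08 in KO replicates 1, 2 and 3, against 0.901, 1.01 and 0.929 in the WT replicates. Without WT replicate 1 the median was -0.05 with 4 of 10 above 0, and without KO replicate 3 it was -0.16 with 3 of 10 above 0. Without WT replicate 3 it was -0.49 with 4 of 10 above 0. In normalized CPM the KO and WT tumours did not overlap for 2 of 10 members, against 8.11% of all genes. For the level of a single gene in these bulk libraries, fewer cells that make it and less RNA per cell cannot be told apart.

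**Figure D2:**
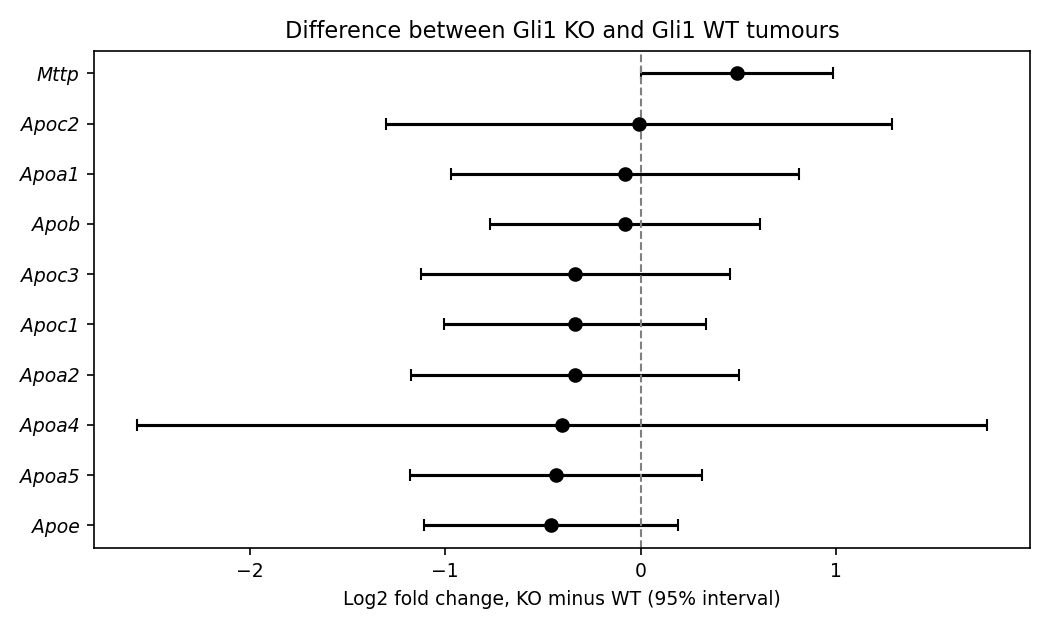
Log2 fold change, KO minus WT, of each member with its 95% interval from edgeR's quasi-likelihood fit (n = 3 per group). Mttp sits highest at 0.49 and its interval begins just above 0, while the intervals of the other 9 include 0 and that of Apoa4 runs from -2.58 to 1.77.

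Mttp, on which assembly depends, was the only member above 0 in the main edgeR fit. Its level was 337, 412 and 308 normalized CPM in KO replicates 1, 2 and 3, against 237, 239 and 275 in the WT replicates. Every KO tumour was above every WT tumour, a separation in this direction that 4.15% of all genes showed. The fold change was 1.41 (log2 0.49 ± 0.21, SE, n = 3 per group), with a 95% interval of 1.00 to 1.98. In edgeR the adjusted p was 1.00 and the unadjusted p 0.0487. With each library left out in turn the log2 fold change ran from 0.37 to 0.58, and the unadjusted edgeR p was then 0.0522 to 0.157. By DESeq2 its adjusted p was 0.822. Mttp (ENSMUSG00000028158) was counted over chr3:138089855-138143388. In GENCODE M21 the gene reaches past this span, where it shares 457 exonic bases with Trmt10a on the opposite strand. Trmt10a held 341 to 673 reads in KO and 409 to 670 in WT libraries, few beside the Mttp reads.

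Apob, the single protein that spans each VLDL particle and the substrate of Mttp, showed no such separation. Normalized CPM were 5497, 6558 and 5069 in the KO tumours, against 6315, 4569.8 and 7229 in the WT tumours. The groups overlapped, and the log2 fold change of -0.08 ± 0.29 had a 95% interval of -0.77 to 0.61, that is 0.585 to 1.53 times (edgeR FDR 1.00). It was 0.07 without WT replicate 3. The 95% interval also holds the Mttp value of 0.49, so a like change of Apob cannot be told from none.

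The ratio of Mttp to Apob within a tumour needs no scaling between libraries. On deposited RPKM it was 0.194, 0.199 and 0.192 in KO replicates 1, 2 and 3, against 0.119, 0.165 and 0.120 in the WT replicates. The KO values lay close together (0.195 ± 0.004, SD, n = 3) and all above the WT values (0.135 ± 0.026, SD, n = 3). The two-sided exact permutation p was 0.1, the smallest that 3 against 3 samples allow, and 0.9 after Benjamini-Hochberg adjustment over the 9 ratios computed, which were picked after member values had been seen. P4hb, the protein disulfide isomerase that forms the other subunit of the transfer complex, had 1945, 1330.0 and 1639 CPM in KO and 2174, 815 and 1913 in WT tumours, which overlap.

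**Figure D3:**
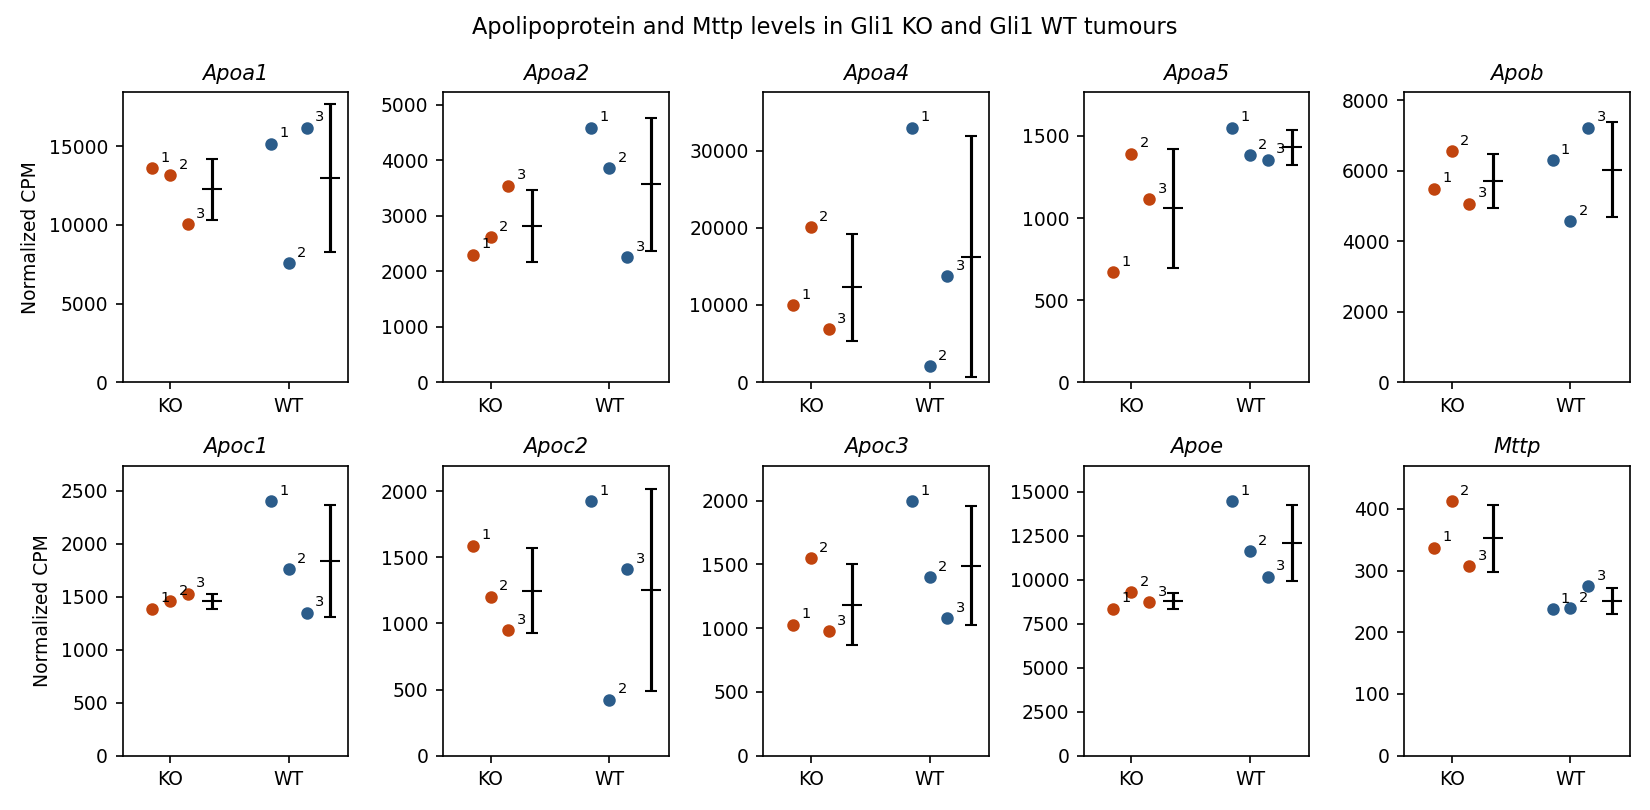
Normalized CPM of each member in 3 Gli1 KO and 3 Gli1 WT tumours; each point is 1 library, labelled by replicate number, and bars give mean ± SD. Every Mttp value in KO is above every WT value, every Apoe value in KO is below every WT value, and the other 8 genes overlap.

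Apoe, the remnant ligand, showed the opposite separation in normalized CPM. It had 8356, 9278 and 8741 normalized CPM in the KO tumours, against 14472, 11629 and 10179 in the WT tumours. All KO tumours were below all WT tumours, as for 3.96% of genes, with 8792 ± 463 CPM in KO and 12093 ± 2184 in WT tumours (SD, n = 3 each). The fold change was 0.727 (log2 -0.46 ± 0.27, 95% interval -1.11 to 0.19), with an unadjusted edgeR p of 0.137 and FDR 1.00. Leaving out WT replicate 1, the highest, gave -0.31. The separation was narrow, with 9278 CPM in the highest KO and 10179 in the lowest WT tumour, and it depended on the scaling. In the deposited RPKM Apoe stood at 4111, 4157 and 4221 in KO and at 5611, 4965 and 4213 in WT tumours. There KO replicate 3 lay just above WT replicate 3, a narrow overlap. Mttp kept apart on that scale too, at 66.7 to 83.0 RPKM in KO and 41.3 to 51.1 in WT tumours. Macrophages also make Apoe. Of 12 macrophage markers, 11 had a log2 fold change below 0, with a median of -0.79, and 0 passed the adjusted edgeR test. Their summed level was 191 to 288 CPM in KO and 192 to 599 in WT tumours. The part of macrophages in the Apoe values was not tested.

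Apoc1, which hinders remnant uptake and is the chromosome 7 neighbour of Apoe, came closest to the Apoe pattern. Its levels were 1388, 1456 and 1530.1 CPM in KO and 2404, 1762 and 1350.1 in WT tumours, so the groups overlapped through WT replicate 3 (log2 fold change -0.33 ± 0.28, edgeR FDR 1.00). Likeness was measured as the root mean square difference between log2 CPM values over the 6 libraries, each gene set to a mean of 0. For Apoc1 and Apoe this was 0.13, the smallest of the 45 pairs of members. Their RPKM ratio stayed between 0.578 and 0.645 in KO and between 0.488 and 0.612 in WT tumours.

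Apoc2, the cofactor that lipoprotein lipase requires, lies in the same chromosome 7 cluster and behaved otherwise. It had 1587, 1201 and 951 CPM in KO replicates 1, 2 and 3, against 1924, 423 and 1412 in the WT replicates. WT replicate 2 held far less than any other tumour, and the other 5 ranged from 951 to 1924. The log2 fold change of -0.01 ± 0.54 has an interval of -1.30 to 1.29, wide enough to hold a difference of more than 2-fold in either direction. It was 0.44 without WT replicate 1 and -0.42 without WT replicate 2. Per length, Apoc2 was 0.403, 0.275 and 0.231 of Apoe in the KO tumours and 0.282, 0.077 and 0.295 of it in the WT tumours. Counts of this gene are uncertain, because the deposited Apoc2 model (chr7:19671579-19681423) extends over Apoc4, as does Gm44805, a transcript that joins both genes in GENCODE M21 and shares 646 of its 765 exonic bases with Apoc2. Apoc4 had 301, 335 and 335 CPM in KO and 552, 384 and 215 in WT tumours, so it was not low in WT replicate 2.

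Apoc3, the apolipoprotein that slows triglyceride clearance, had 1027, 1547 and 975 CPM in KO and 1996, 1399 and 1076 in WT tumours. Apoa5, which acts in the opposite sense by promoting lipolysis, had 672, 1392 and 1116 CPM in KO and 1551, 1383 and 1356 in WT tumours. For Apoc3 the groups overlapped widely. For Apoa5 the overlap was slight: KO replicate 2 reached the WT values and KO replicates 1 and 3 were below them. Log2 fold changes were -0.33 ± 0.33 for Apoc3 and -0.43 ± 0.31 for Apoa5 (edgeR FDR 1.00 for both). Without KO replicate 1, Apoa5 was -0.18, and without WT replicate 1, Apoc3 was -0.06. The RPKM ratio of Apoa5 to Apoc3 was 0.264 to 0.461 in KO and 0.313 to 0.508 in WT tumours.

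The HDL proteins Apoa1 and Apoa2 each overlapped between genotypes. Apoa1 had 13605, 13168 and 10050.1 CPM in KO replicates 1, 2 and 3, against 15166, 7572 and 16188 in the WT replicates (log2 fold change -0.08 ± 0.37, 95% interval -0.97 to 0.81). Apoa2 had 2299, 2615 and 3541 CPM in KO and 4585, 3852 and 2250.1 in WT tumours (-0.34 ± 0.35, 95% interval -1.18 to 0.50). Neither passed (edgeR FDR 1.00). WT replicate 2 was lowest for Apoa1 and second highest for Apoa2. Their RPKM ratio, Apoa1 over Apoa2, was 2.57, 2.19 and 1.23 in KO and 1.44, 0.855 and 3.13 in WT tumours. The pattern nearest to that of Apoa1 among members was Apob, at a root mean square difference of 0.20, and Apoa1 and Apoa2 were 0.65 apart.

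Apoa4 varied most of all. It had 10016, 20084 and 6831 normalized CPM in KO replicates 1, 2 and 3, against 32970.3, 2060.0 and 13776 in the WT replicates. The lowest and the highest tumour of the series, 16.0-fold apart, were both WT, and all 3 KO tumours fell between them. The log2 fold change was -0.40 ± 0.91 (95% interval -2.58 to 1.77, edgeR FDR 1.00). It became 0.64 without WT replicate 1 and -0.95 without KO replicate 2. In WT replicate 2 Apoa4 stood at 0.185 of Apoa1 per length, and in WT replicate 1 at 1.48. In the KO tumours the ratio was 0.501, 1.04 and 0.463. Apoa4 and Apoa1 lie in the chromosome 9 cluster, with only Apoc3 between them (chr9:46228580-46230466 for Apoa1 and chr9:46240696-46243459 for Apoa4); their patterns differed by 0.95.

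**Figure D4:**
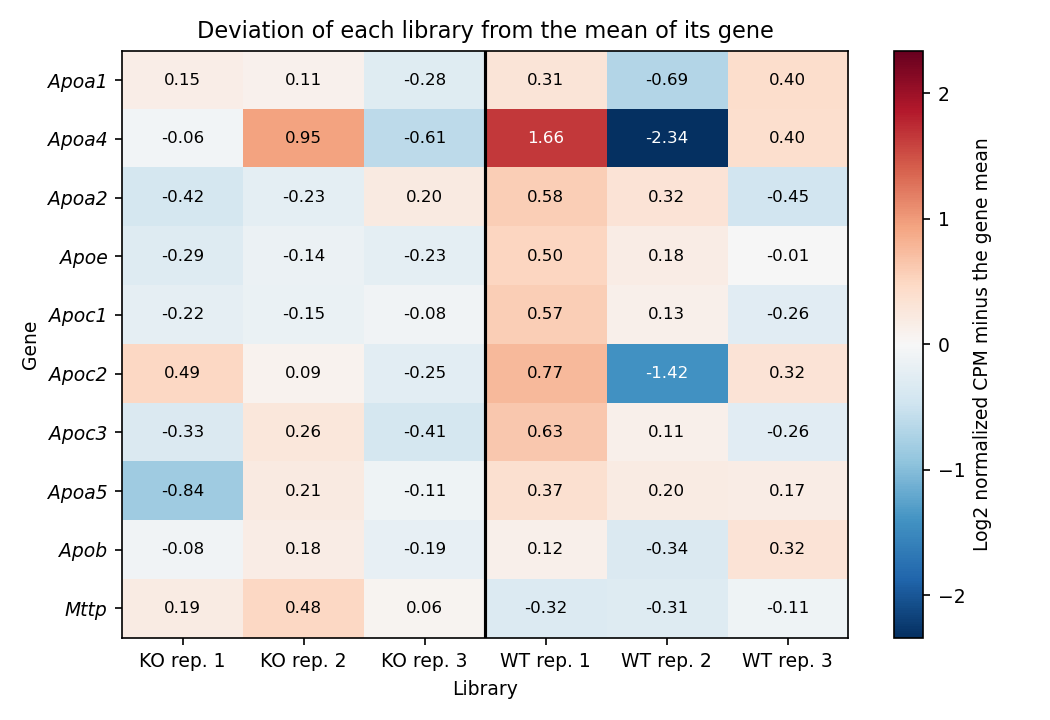
Log2 normalized CPM of each member minus its mean over the 6 libraries, with KO tumours on the left and WT tumours on the right of the line. WT replicate 2 is low for Apoa4 (-2.34), Apoc2 (-1.42) and Apoa1 (-0.69) but not for Apoa2 (0.32) or Apoe (0.18), and WT replicate 1 is above 0 for every member except Mttp.

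Single tumours carried much of this variation. WT replicate 1 was the highest of the 6 libraries for 7 members (Apoa2, Apoa4, Apoa5, Apoc1, Apoc2, Apoc3 and Apoe) and the lowest for Mttp. WT replicate 2 was the lowest for 4 (Apoa1, Apoa4, Apob and Apoc2). Apoa2 and Apoc1 were lowest in WT replicate 3, Apoa5 and Apoe in KO replicate 1 and Apoc3 in KO replicate 3. The hepatocyte markers summed to 246392, 189223 and 249278 CPM in WT replicates 1, 2 and 3, so WT replicate 2 was also the lowest of the WT tumours there. Albumin (Alb) had 114643, 132598 and 125605 CPM in KO and 167494, 127663 and 161449 in WT tumours.

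The 5 genes nearest in pattern to Apoa4, the member of widest range, were sought among 7989 others with a mean of at least 10 CPM. First was Gm10680, at a root mean square difference of 0.03. Gm10680 (chr9:46242621-46243529) is annotated by GENCODE M21 as antisense to Apoa4, and 632 of its 702 exonic bases, 90.0%, lie within Apoa4 exons. Its reads were 0.553, 0.536 and 0.557 of those of Apoa4 in KO and 0.551, 0.551 and 0.530 in WT tumours. No source used here tells whether strand was used when reads were assigned, so reads of the pair cannot be told apart, and Gm10680 is not a second measurement. Next came Cntnap1 (0.49), an axonal junction protein with 36.6 to 62.6 CPM in KO and 5.25 to 109 in WT tumours, and the adaptor protein Stap1 (0.56). The lipid droplet protein Cidec followed (0.58), with 41.0, 45.5 and 23.3 CPM in KO and 47.5, 8.76 and 58.4 in WT tumours. Elovl5, a fatty acid elongase, came last of the 5 (0.64), with 541 to 699 CPM in KO and 1064, 179 and 612 in WT tumours. All 5 were lowest in WT replicate 2. None of them passed between genotypes in edgeR (FDR 1.00 each).

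**Figure D5:**
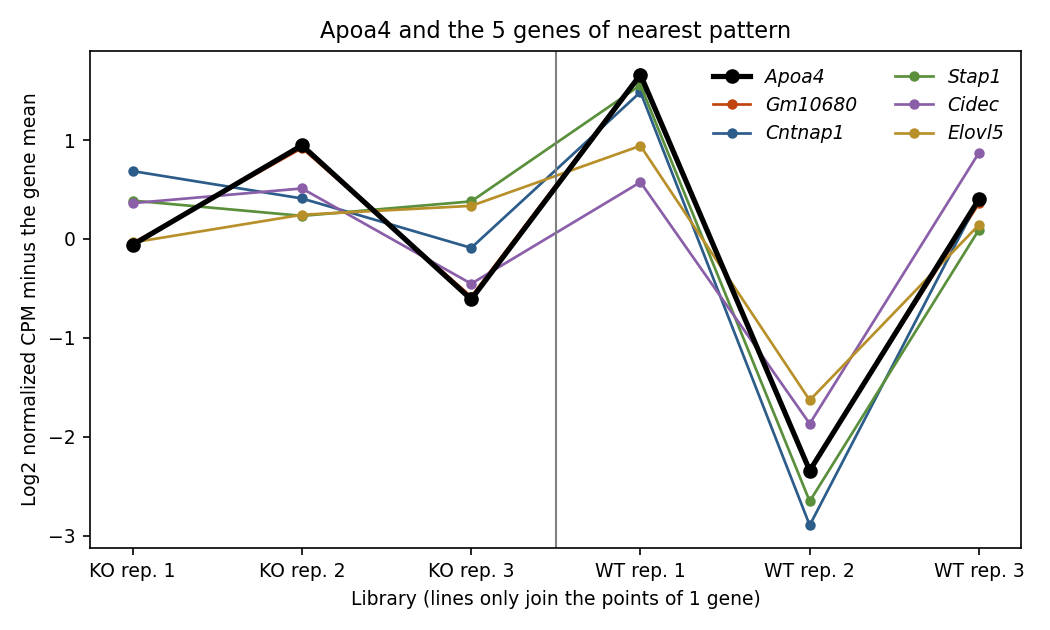
Log2 normalized CPM minus the mean of the gene for Apoa4 (thick line) and the 5 genes of nearest pattern, in KO (left) and WT (right) tumours; lines only join the points of 1 gene. The Gm10680 line lies under that of Apoa4, at a root mean square difference of 0.03, and every gene has its lowest value in WT replicate 2.

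Around the 10 members, 6 lists held the rest of the pathway, and 0 of their genes passed FDR 0.05 in edgeR or DESeq2. In these lists 2 genes had an unadjusted edgeR p under 0.05 and a positive fold change, against 1.6% of all genes, and 1 had a negative one, against 2.02%. KO and WT tumours did not overlap for 1 of 16 assembly genes (lower in KO) and 1 of 18 regulators (higher). Of 11 receptor and clearance genes, 1 was higher and 2 were lower without overlap. The remaining lists had 0, and the share of all genes without overlap was 8.11%. Other apolipoproteins had 1 of 6 genes above 0 and a median log2 fold change of -0.27. The 2 of smallest p were Apon (-0.50 ± 0.31), which is -0.17 without WT replicate 1, and Apoh (-0.36 ± 0.25), a phospholipid-binding plasma protein. Assembly and secretion genes had 12 of 16 above 0 and a median of 0.09. In that list Dgat1, which makes triglyceride, had 15.1, 15.7 and 18.1 CPM in KO and 18.4, 19.9 and 18.2 in WT tumours, a narrow separation (-0.21 ± 0.15). Creb3l3, a liver transcription factor known in mice to activate Apoa4 and Apoc2, was at 0.30 ± 0.23.

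Lipolysis and remodelling genes had 3 of 12 above 0, with a median of -0.28. Angptl8, a secreted inhibitor of lipoprotein lipase, had 76.0, 25.6 and 82.8 CPM in KO and 21.2, 36.9 and 15.6 in WT tumours, which overlap through KO replicate 2 (1.32 ± 0.51). Its adjusted edgeR p was 1.00 (0.0369 unadjusted). Gpihbp1, which anchors lipoprotein lipase to endothelium, had 14.99, 12.1 and 8.18 CPM in KO and 26.0, 14.7 and 17.6 in WT tumours. They overlap narrowly, and the log2 fold change was -0.73 ± 0.30, and -0.45 without WT replicate 1. Of 10 endothelial markers, 7 were below 0 in the same comparison, with a median of -0.42 and summed levels of 221 to 288 CPM in KO and 311 to 377 in WT tumours. The markers disagreed: Pecam1 (0.01), Cdh5 (0.07) and Tie1 (0.15) were the 3 above 0. Lowest were Lyve1 (-1.36), Clec4g (-1.21) and Fcgr2b (-0.87). The part of endothelial cells in the Gpihbp1 value was not tested.

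Receptor and clearance genes had 5 of 11 above 0, with a median of -0.02. Mylip, the ubiquitin ligase that degrades the LDL receptor, had 6.74, 9.34 and 6.31 CPM in KO and 14.1, 16.9 and 9.95 in WT tumours. The groups did not overlap (-0.87 ± 0.27; adjusted edgeR p of 1.00, 0.0143 unadjusted). Sterol exporters had 2 of 4 above 0, with Abcg5 at -0.22 ± 0.25 and Abcg1 at -0.26 ± 0.40. Abcg1 was 0.23 without WT replicate 3.

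Regulators had 9 of 18 genes above 0 and a median of 0.01. Nr0b2, a nuclear receptor without a DNA-binding domain that represses other nuclear receptors, had 14.4, 36.2 and 18.1 CPM in KO and 7.55, 8.71 and 13.3 in WT tumours. All KO tumours were above all WT tumours (1.21 ± 0.40; adjusted edgeR p of 1.00, 0.0202 unadjusted), and it was 0.73 without KO replicate 2. Rora was at 0.40 ± 0.26. Hnf4a, the hepatocyte nuclear receptor known to activate many apolipoprotein genes, had 469, 593 and 455 CPM in KO and 577, 727 and 609.6 in WT tumours (-0.34 ± 0.22, FDR 1.00), with slight overlap.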

How the data were processed

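The authors deposited 1 table of raw read counts and RPKM values per gene for 6 libraries, per the file headers. The submitters' processing notes list TopHat2 2.0.6, HTSeq and bcl2fastq without their roles, and name GRCh37 and hg19, which are human builds. The identifiers are nevertheless mouse Ensembl; of the 42462 shared with GENCODE M21 (GRCm38), 84.2% have the same start, so deposited coordinates are read as GRCm38. The deposited RPKM use the length column of the table and a library total above the summed counts. The excess was 12.6 to 12.9% in KO and 13.3 to 19.0% in WT libraries, so RPKM are scaled down more in WT. All mitochondrial rows are at 0.

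Libraries were assigned to genotypes by title. Deposited counts were tested with edgeR 4.0.16 (R 4.3.3): filterByExpr kept 18359 genes, TMM factors, robust quasi-likelihood test, two-sided, Benjamini-Hochberg adjustment, threshold 0.05. Standard errors are the fold change over the root of F; intervals are 95%. DESeq2 1.42.0 (18206 genes adjusted) and limma 3.58.1 (voom) were among 16 alternatives. Depth was 75205624 to 132979502 counts per library.

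The members and lists were chosen with earlier results of these data known. Of 143 list entries, 141 matched by deposited symbol and 2 through GENCODE. Named genes are all members, Gli1, Sulf2, Alb and Ttr, the 2 genes of smallest p in each pathway list (1 of them is not reported here), and the 5 patterns nearest to the member of widest range. P4hb, Hnf4a, Apoc4, Trmt10a and the single cholangiocyte and endothelial markers were named after their values were seen. Ttr had 2323 to 4954 CPM in KO and 2620.3 to 3972 in WT tumours (log2 fold change 0.05 ± 0.36). Promoter sequences are from RefSeq on GRCm38.p6.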

Additional observations from a re-analysis of the deposited data

How the results depend on the processing

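None of the 16 alternatives called a member, and apart from DESeq2 none called any gene. DESeq2 called 64 genes (0.352% of those it adjusted), against 0 by edgeR, where 665 genes had an unadjusted p under 0.05. The counts with each library left out were 0 to 0, for members and for all genes. Mttp stayed above 0 (0.37 to 0.58) and Apoa2, Apoa5, Apoc1, Apoc3 and Apoe below 0 in all 16. Of 479 values of 30 named genes over these alternatives, 439 kept direction and side of the threshold and 40 changed sign, none of them past the threshold in either fit. Those log2 fold changes follow; the causes were not tested. With upper-quartile factors the value was 0.010 for Apoc2. Without a low-count filter the value was 0.011 for Apoc2. With limma voom the value was 0.18 for Apoa4, 0.22 for Apoc2, -0.038 for Sulf2, 0.19 for Gm10680, 0.66 for Cntnap1, 0.63 for Stap1 and 0.27 for Cidec. With the replicate block the value was 0.20 for Apoc2, -0.011 for Ttr, 0.49 for Cntnap1, 0.59 for Stap1 and 0.21 for Cidec. With the number-range covariate the value was -0.74 for Sulf2, -0.18 for Ttr, 0.028 for Abcg1 and -0.024 for Elovl5. With each library left out in turn the values ran over -0.35 to 0.11 for Apoa1, -0.95 to 0.64 for Apoa4, -0.25 to 0.070 for Apob, -0.42 to 0.44 for Apoc2, -2.27 to 2.81 for Sulf2, -0.31 to 0.27 for Ttr, -0.54 to 0.23 for Abcg1, -0.93 to 0.67 for Gm10680, -0.67 to 0.83 for Cntnap1, -0.67 to 1.04 for Stap1, -0.53 to 0.38 for Cidec and -0.41 to 0.68 for Elovl5. Deviations of same-numbered libraries from their group means correlated across 18359 genes at -0.29, 0.18 and -0.34. Of the 6 libraries only KO replicate 2 correlated best with its own number. With 3 libraries a group such deviations depend on each other, so these values cannot decide whether the tumours were paired. The numbers opening the sample descriptions were 1767 (KO) and 1759 (WT) for replicate 1 and 4206 and 4204 for replicate 2. For replicate 3 they were 1647 and 3981. The replicate block called 0 genes and 0 members. The number-range covariate splits the libraries by whether the number opening the sample description is under 2000. With 3 tumours a group, the 95% interval of the log2 fold change was narrowest for Mttp (0.0038 to 0.98) and widest for Apoa4 (-2.58 to 1.77).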
